A study of Mus musculus with 110 samples.

Results

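The respiratory chain subunits are the structural proteins of the NADH dehydrogenase (complex I), succinate dehydrogenase (complex II), the cytochrome bc1 complex (complex III), cytochrome c oxidase (complex IV) and the ATP synthase (complex V). Their genes were chosen by symbol (Ndufa, Ndufb, Ndufc, Ndufs and Ndufv followed by a number, Sdha to Sdhd, Uqcr, Cox4 to Cox8, Atp5 and the mitochondrial mt-Nd, mt-Co, mt-Cytb and mt-Atp genes), without Cox7a1, Cox8b and pseudogenes, and with a mean of at least 1 CPM (a count scaled to the library's total) in at least 1 tissue. By this rule 90 of the 56884 genes in the tables were members: 80 nuclear genes (37 of complex I, 4 of complex II, 8 of complex III, 14 of complex IV and 17 of complex V) and 10 mitochondrial genes (5, 0, 1, 3 and 1). Complexes were assigned by symbol, so that Ndufa4, which is known as a component of complex IV, was counted with complex I, and the rule does not take in Cyc1 and Ndufab1.

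RNA from liver, interscapular brown adipose tissue (iBAT), inguinal white adipose tissue (iWAT) and epididymal white adipose tissue (eWAT) was sequenced from single-housed male wild-type C57BL/6N mice that were 16 weeks old at the end. All mice ate a diet without cysteine, for 7 days at 22 °C, holding 0.86% methionine in the control (Ctrl) groups and 0.12% methionine in the methionine-restricted (MetR) groups. The RT groups were sampled then, and the cold-exposed (CE) groups spent a further 24 h at 4 °C, so that cold and the added day cannot be told apart, which gave Ctrl_RT, Ctrl_CE, MetR_RT and MetR_CE with up to 7 mice each per tissue. The 110 libraries held 6987895 to 33444374 counts. The fits used the 105 libraries that the study kept: all 28 of liver, 26 of 27 of iBAT, all 27 of iWAT and 24 of 28 of eWAT, where Ctrl_RT was left with 4 libraries. Replicates were separate mice, and the same mice gave all tissues. In iBAT, 3 libraries (replicate 1 of Ctrl_CE, MetR_RT and MetR_CE) carry a treatment label that names another group than their title, and they were placed by title. Gene levels below are CPM scaled by edgeR's TMM factors within each tissue, so that levels of different tissues share no common scale and are compared by the joint fit. Beside every sample value, n is 7 for each group, except 6 for Ctrl_RT and Ctrl_CE in iBAT, MetR_CE in iWAT and MetR_RT in eWAT, and 4 for Ctrl_RT in eWAT.

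The respiratory chain passes electrons from NADH and succinate to oxygen and pumps protons across the inner mitochondrial membrane, and the ATP synthase lets them flow back to make ATP. Brown adipocytes are packed with mitochondria in which UCP1 lets the protons leak back as heat, and they are known for abundant electron transport complexes with little ATP synthase. The subunits come from both genomes, and nuclear respiratory factor 1 (NRF1), GA-binding protein (GABP), the estrogen-related receptors (ERR) and YY1, with the coactivator PGC-1α, are known regulators of the nuclear ones.

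RefSeq promoters (build GRCm38.p6, 250 bases before to 50 bases after the start site) were found by symbol for 65 of the 80 nuclear members. Exact matches to NRF1 (CGCATGCG) stood in promoters of 9 of these members (13.8%, against 2.07% of all 27025 genes with a promoter). GABP (CCGGAAG) matched in 16 (24.6%, against 9.93%) and ERR (TCAAGGTCA) in 2 (3.08%, against 0.466%). YY1 (AANATGGCG) matched in 10 (15.4%, against 2.76%), and both strands were counted for each motif. At least 1 of the 4 motifs stood in 30 of the 65 (46.2%), against 14% of all 27025 genes. The promoters of Uqcrc1, Sdhd and Atp5b are shown as examples with a motif, from genes that rose most or code for a catalytic subunit. That of Uqcrfs1, also among the largest rises in iWAT, held none of the 4 motifs, nor did those of Sdha and Ndufv1. Capitals mark the matches on either strand: NRF1 in Uqcrc1, GABP and then ERR in Sdhd, and YY1 in Atp5b.
Uqcrc1, chr9:108936398-108936697, plus strand: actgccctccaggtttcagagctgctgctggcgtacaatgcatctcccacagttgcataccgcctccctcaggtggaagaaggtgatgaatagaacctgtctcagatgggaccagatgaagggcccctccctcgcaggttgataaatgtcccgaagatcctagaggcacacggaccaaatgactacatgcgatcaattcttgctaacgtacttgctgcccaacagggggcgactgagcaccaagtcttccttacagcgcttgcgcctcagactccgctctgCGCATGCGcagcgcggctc
Sdhd, chr9:50603800-50604099, minus strand: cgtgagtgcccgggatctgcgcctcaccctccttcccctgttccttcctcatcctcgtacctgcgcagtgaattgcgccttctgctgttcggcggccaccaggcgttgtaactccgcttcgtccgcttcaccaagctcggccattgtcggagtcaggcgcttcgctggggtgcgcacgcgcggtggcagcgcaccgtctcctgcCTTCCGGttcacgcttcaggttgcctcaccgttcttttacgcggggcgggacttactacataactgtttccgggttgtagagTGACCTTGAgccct
Atp5b, chr10:128083057-128083356, plus strand: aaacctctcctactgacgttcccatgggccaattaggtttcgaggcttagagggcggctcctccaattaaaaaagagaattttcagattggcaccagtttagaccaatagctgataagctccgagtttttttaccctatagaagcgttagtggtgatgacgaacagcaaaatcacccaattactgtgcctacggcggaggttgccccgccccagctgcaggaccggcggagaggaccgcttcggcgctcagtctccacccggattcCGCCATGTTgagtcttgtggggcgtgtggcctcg

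Atp5g1, Atp5g2 and Atp5g3 code for the same mature c subunit, which forms the rotor ring of the ATP synthase, behind different import sequences. Their promoters are shown because Atp5g1 alone of the members was lower in iBAT than in iWAT. That of Atp5g1 held none of the 4 motifs, that of Atp5g2 held NRF1 and that of Atp5g3 held ERR.
Atp5g1, chr11:96075582-96075881, minus strand: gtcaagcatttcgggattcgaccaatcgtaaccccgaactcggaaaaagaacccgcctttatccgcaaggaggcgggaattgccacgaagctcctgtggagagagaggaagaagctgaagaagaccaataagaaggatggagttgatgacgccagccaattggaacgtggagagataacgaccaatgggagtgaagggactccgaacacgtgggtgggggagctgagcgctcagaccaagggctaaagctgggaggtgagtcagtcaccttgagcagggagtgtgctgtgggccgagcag
Atp5g2, chr15:102670998-102671297, minus strand: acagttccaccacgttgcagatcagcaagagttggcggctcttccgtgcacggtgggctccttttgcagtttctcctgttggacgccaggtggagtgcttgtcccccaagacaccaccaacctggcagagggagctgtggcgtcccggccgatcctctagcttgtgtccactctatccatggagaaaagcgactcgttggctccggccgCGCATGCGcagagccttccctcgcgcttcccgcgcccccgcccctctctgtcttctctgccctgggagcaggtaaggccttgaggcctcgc
Atp5g3, chr2:73911277-73911576, minus strand: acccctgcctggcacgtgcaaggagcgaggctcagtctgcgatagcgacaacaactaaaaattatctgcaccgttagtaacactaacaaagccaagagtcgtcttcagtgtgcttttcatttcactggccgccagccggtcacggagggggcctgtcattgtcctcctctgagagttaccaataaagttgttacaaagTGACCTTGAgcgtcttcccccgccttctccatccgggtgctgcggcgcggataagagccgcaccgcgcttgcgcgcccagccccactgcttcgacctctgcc

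Among the mitochondrial members, mt-Nd1, mt-Nd2, mt-Nd4, mt-Nd5, mt-Cytb and mt-Co1 were abundant, whereas mt-Co2, mt-Co3 and mt-Atp6 were near 0. The median of mt-Co1 in Ctrl_RT of liver was 13705 CPM and that of mt-Co2 was 3.49 CPM. Of the windows of 50 bases of mt-Co2, mt-Co3 and mt-Atp6, 100%, 99.9% and 99.5% stood in annotated nuclear copies as well, and 62.2% of mt-Nd4 and 51.1% of mt-Co1, so that the counts of these genes can be split between copies and are uncertain. No window of mt-Nd1, mt-Cytb or mt-Nd6 was shared, and 8.19% of mt-Nd2 and 7.61% of mt-Nd5. The library kit does not mark the strand, so that mt-Nd6, which lies on the other strand, cannot be told apart from transcripts antisense to it. Poly(A) selection also makes the level of a mitochondrial mRNA depend on its short tail. Of the nuclear members, 19 shared over 10% of their windows with other genes, at most 41.6% (Atp5o).

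In Ctrl_RT, the subunits took the largest share of counts in iBAT. The 80 nuclear members took a median of 3.83% of all counts in iBAT (3.75 to 4.06%), against 1.36% in iWAT (1.23 to 1.63%), 1.12% in liver (1.02 to 1.16%) and 1.17, 1.18, 1.18 and 1.18% in the 4 eWAT libraries. The 10 mitochondrial members took 12.3% in iBAT (12.1 to 14.3%), 4.00% in iWAT (3.61 to 4.84%), 3.896% in liver (3.21 to 4.17%) and 3.34 to 4.42% in eWAT. iBAT therefore lay above the other tissues with no overlap, while the ranges of the others overlapped for the mitochondrial members. Less RNA per cell and fewer cells of a type cannot be told apart in such bulk samples.

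**Figure D1:**
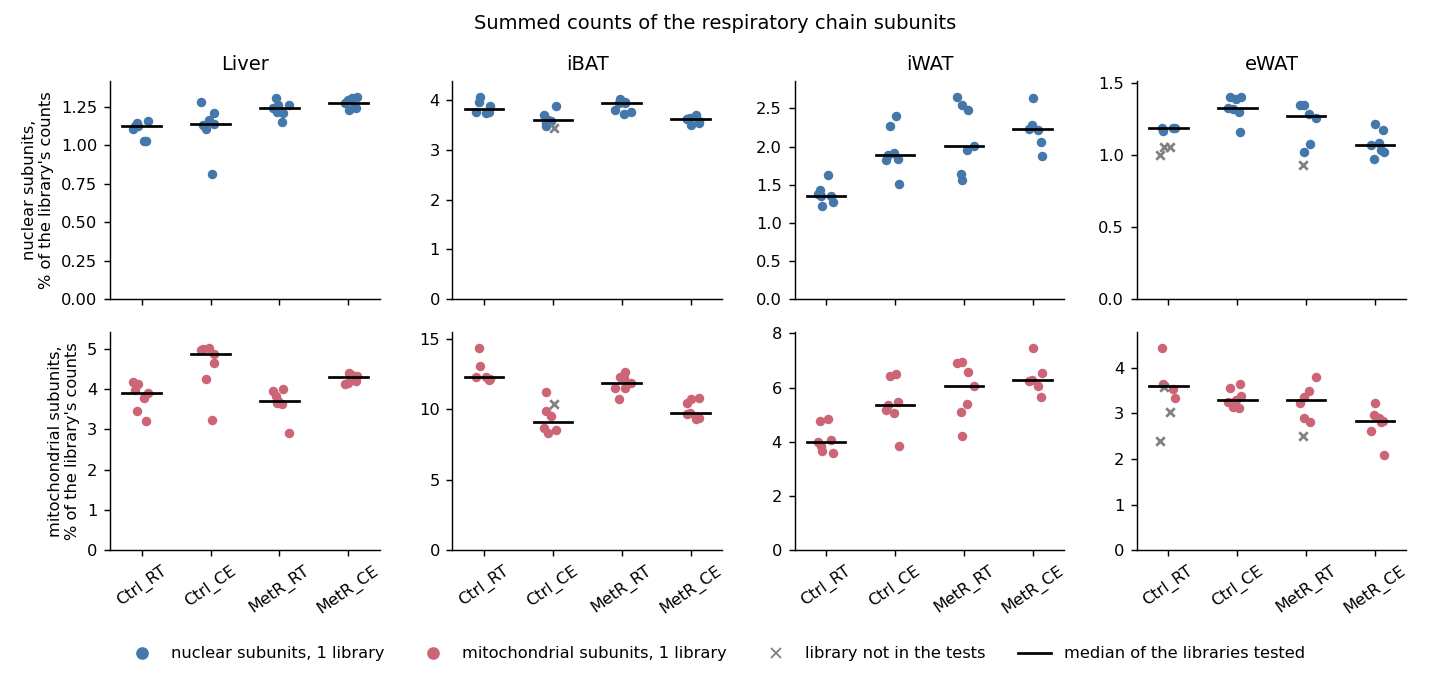
Summed counts of the 80 nuclear (top row) and 10 mitochondrial (bottom row) subunits as a percentage of each library's counts, by tissue and group, with a point per library, a line at the median of the libraries in the tests and crosses for those left out. The scale differs between panels; in iWAT the 3 groups other than Ctrl_RT lie higher, and in iBAT the mitochondrial share is lower in both cold groups.

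A joint fit over the 4 tissues (edgeR's quasi-likelihood test, with p-values adjusted over all genes by the Benjamini-Hochberg method) found 86 of 90 members higher in iBAT than in iWAT in Ctrl_RT, where 20.3% of all genes were higher, and 1 lower, where 24.1% were lower. The median difference was 1.73 on the log2 scale. The most distant members were of the oxidative complexes: Uqcrc1, a core protein of complex III, had 1150 to 1325 CPM in iBAT (median 1181) and 215 to 339 CPM in iWAT (median 227), a log2 difference of 2.64 ± 0.13 (SE; adjusted p = 4.19e-33). By complex, the median differences of the nuclear members were 1.68 (complex I), 2.19 (II), 1.91 (III), 1.59 (IV) and 1.39 (V), and that of the mitochondrial members was 2.15. Complex V thus had the smallest median of the 5, and no test compared the complexes.

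The member that was lower in iBAT was Atp5g1. It had 2.35 to 5.66 CPM in iBAT (median 2.79), 15.1 to 22.1 CPM in iWAT (median 17.2), 19, 20.7, 26.4 and 22.7 CPM in eWAT and 105 to 127 CPM in liver (median 115). These levels are scaled within each tissue, so that their ranges are not compared between tissues. In the joint fit the log2 difference of iBAT from iWAT was -1.95 ± 0.20 (adjusted p = 1.12e-14), while liver was 3.23 ± 0.19 higher than iWAT (adjusted p = 6.08e-30). Atp5g3, which had the most counts of the 3 genes, had 176 to 207 CPM in iBAT (median 189) and 241 to 345 CPM in iWAT (median 281.5), and the joint fit, which scales all tissues together, gave a difference of -0.20 ± 0.09 (adjusted p = 0.0615). Atp5g2 was 0.66 ± 0.08 higher in iBAT (adjusted p = 2.38e-11). Per kilobase of exon, the Ctrl_RT medians in iBAT were 86.9 CPM for Atp5g3, 10.1 for Atp5g2 and 1151 for Atp5a1, the α subunit of the catalytic head.

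**Figure D2:**
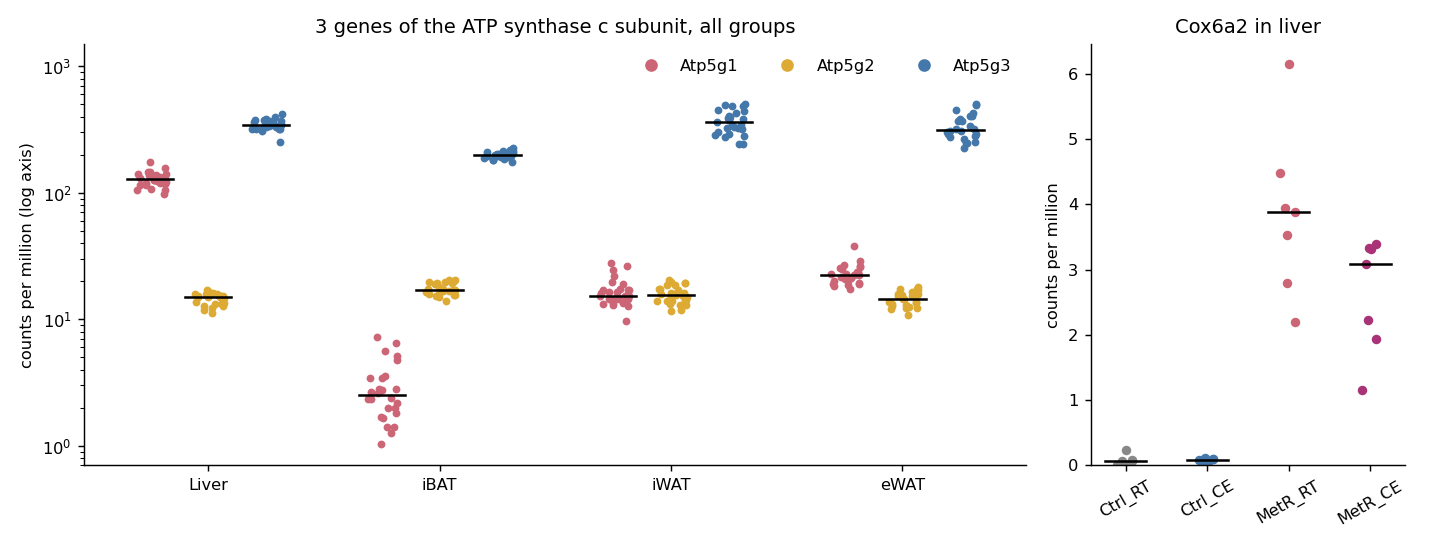
Left, scaled CPM (log axis) of the 3 genes for the ATP synthase c subunit in every library of the fits, by tissue, with a line at the median over all groups. Levels are scaled within each tissue, and Atp5g1 runs from 1.04 to 7.22 CPM in iBAT. Right, Cox6a2 in liver in scaled CPM by group, where all MetR libraries lie above all Ctrl libraries.

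Skeletal muscle markers differed between libraries of iBAT and iWAT, and are given beside Cox6a2, the muscle isoform of a complex IV subunit, and Atp5g1. The sum of 9 muscle markers (Acta1, Ckm and others) ran from 30.8 to 1849 CPM over the iBAT libraries, and the Ctrl_RT library with the highest sum (replicate 5) had 4.83 CPM of Cox6a2 and 5.66 CPM of Atp5g1, against 0 and 2.35 CPM in the library with the lowest sum (replicate 4). In iWAT, the library with the highest sum (MetR_RT replicate 6, 21476 CPM) had 34.4 CPM of Cox6a2 and 27.9 CPM of Atp5g1, the highest value of both genes in that tissue. The library with the next highest Atp5g1 there (Ctrl_CE replicate 4, 26.5 CPM) had the lowest muscle sum of its group, 41.5 CPM, and 0.0524 CPM of Cox6a2. The part of muscle in the level of these genes was not tested. Against iWAT, eWAT was lower in 44 members (10.9% of all genes) and higher in 2 (12% of all genes), with a median of -0.31, and liver was higher in 72 (24.3%) and lower in 6 (30.9%), with a median of 0.57. The 2 members higher in eWAT were Ndufa4l2, a hypoxia-induced relative of Ndufa4, and Atp5s, a coupling factor of the ATP synthase. With all 28 eWAT libraries, 76 members differed from iWAT instead of 46.

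In iWAT, subunits of all 5 complexes and of both genomes were higher in each of the 3 groups than in Ctrl_RT. In Ctrl_CE 81 of 90 members rose and 0 fell, in MetR_RT 80 rose and 0 fell, and in MetR_CE 84 rose and 0 fell. Of all 26428 genes tested, 14.6, 11 and 17.2% rose in these comparisons, and 16.2, 11.5 and 19.9% fell. The median log2 fold change of the members was 0.64, 0.74 and 0.79, while that of all genes was -0.11, -0.03 and -0.08. The 3 comparisons share the Ctrl_RT libraries. With a change of at least 1.5-fold as a further condition, 54, 70 and 70 members rose.

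**Figure D3:**
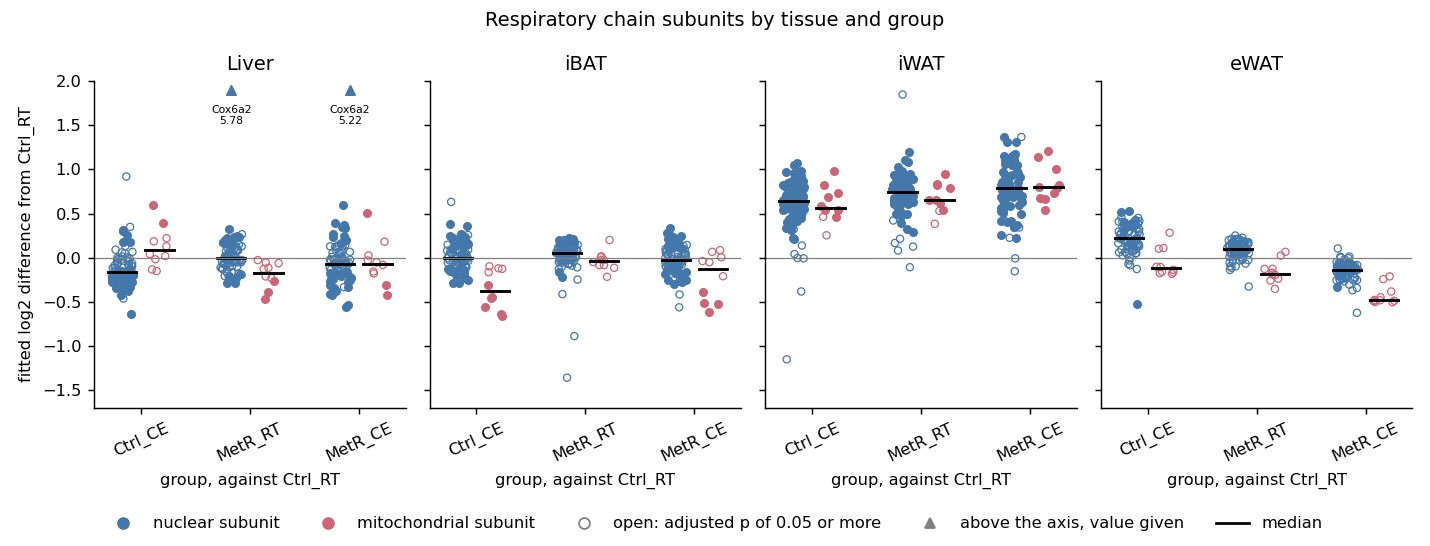
Fitted log2 difference from Ctrl_RT of each of the 80 nuclear (blue) and 10 mitochondrial (red) subunits by tissue and group, filled where the adjusted p was under 0.05, with a line at the median. In iWAT nearly all points lie above 0 in each group, with nuclear and mitochondrial medians of 0.65 and 0.57 in Ctrl_CE, whereas those of the other tissues lie on both sides of 0 or near it; a triangle marks a value above the axis.

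Complex III had some of the largest rises. Uqcrc1 had 215 to 339 CPM in Ctrl_RT (median 227), 306 to 645 in Ctrl_CE (472), 325 to 811 in MetR_RT (571) and 519 to 857 in MetR_CE (646). Only MetR_CE lay wholly above Ctrl_RT, and the log2 fold changes were 0.98 ± 0.19, 1.20 ± 0.19 and 1.36 ± 0.19 (adjusted p = 0.000236, 8.17e-05 and 3.49e-06). Uqcrfs1, the Rieske iron-sulfur protein that passes electrons to cytochrome c1, went from 171 to 290.9 CPM (median 197) to 256.3 to 606 (417), 257.2 to 666 (414) and 422 to 697 (511). Its log2 fold changes were 1.05 ± 0.19, 1.11 ± 0.19 and 1.31 ± 0.20, and again only MetR_CE did not overlap Ctrl_RT. All 8 nuclear members and mt-Cytb of this complex rose in each group.

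The entry complexes moved with them. Ndufs1, the large iron-sulfur subunit of the NADH module of complex I, had 129 to 238 CPM in Ctrl_RT (median 164), 211 to 402 in Ctrl_CE (300), 213 to 436 in MetR_RT (341) and 311 to 470 in MetR_CE (352). MetR_CE lay above Ctrl_RT without overlap, and the fold changes were 1.86, 1.89 and 2.15 (adjusted p = 0.000108, 0.000171 and 5.89e-06). In complex II, Sdhd, which anchors the enzyme in the membrane, had 135 to 225 CPM in Ctrl_RT (median 159), 215 to 494 in Ctrl_CE (324), 192 to 436 in MetR_RT (303) and 303 to 468 in MetR_CE (357). Its log2 fold change of 1.07 ± 0.18 was the largest of the called members in Ctrl_CE. Of the 37 nuclear members of complex I, 35, 36 and 36 rose, and all 4 members of complex II rose in each group.

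In complex IV, 11, 10 and 11 of 14 nuclear members rose. Cox5a, a subunit on the matrix side of the enzyme, had 89.9 to 150 CPM in Ctrl_RT (median 106) and 193 to 314 in MetR_CE (243.7), with no overlap and a log2 fold change of 1.15 ± 0.18 (adjusted p = 1.52e-05). Cox4i2, Cox6a2 and Cox6b2 passed in none of the 3 comparisons. Cox4i2, the isoform of Cox4i1 known from lung and low oxygen, had 0.868 to 2.99 CPM in Ctrl_RT and 1.59 to 3.09 CPM in MetR_CE (log2 fold change 0.42 ± 0.23), and Cox6b2, the testis isoform, was at -0.38, 0.08 and -0.01 in the 3 comparisons. Cox6a2 had values of -1.15 ± 0.98, 1.85 ± 0.92 and 1.37 ± 0.93, with the muscle markers described above. Ndufa4l2 was at 0.04 ± 0.24, 0.45 ± 0.24 and 0.34 ± 0.25.

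In complex V, 15, 14 and 15 of 17 nuclear members rose. Atp5a1 had 874 to 1448 CPM in Ctrl_RT (median 971), 1370 to 2630 in Ctrl_CE (1925), 1317 to 2728 in MetR_RT (2073) and 1967 to 2912 in MetR_CE (2248), with fold changes of 1.96, 1.93 and 2.23 (adjusted p = 6.44e-05, 0.000174 and 5.07e-06). Atp5g1 did not pass the test. It had 15.1 to 22.1 CPM in Ctrl_RT (median 17.2), 14.4 to 26.5 in Ctrl_CE (16.5), 9.68 to 27.9 in MetR_RT (14.5) and 12.7 to 24.5 in MetR_CE (13.96). All 4 groups overlapped, and the log2 fold changes were -0.01 ± 0.18, -0.11 ± 0.18 and -0.15 ± 0.19 (adjusted p = 0.985, 0.737 and 0.575). Cox7a2l, known as a supercomplex factor, had a smaller change than most, with 55.7 to 80.3 CPM in Ctrl_RT and 75.3 to 92.0 in MetR_CE. Its log2 fold changes were 0.22 ± 0.08, 0.17 ± 0.08 and 0.26 ± 0.09 (adjusted p = 0.0403, 0.158 and 0.0193).

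**Figure D4:**
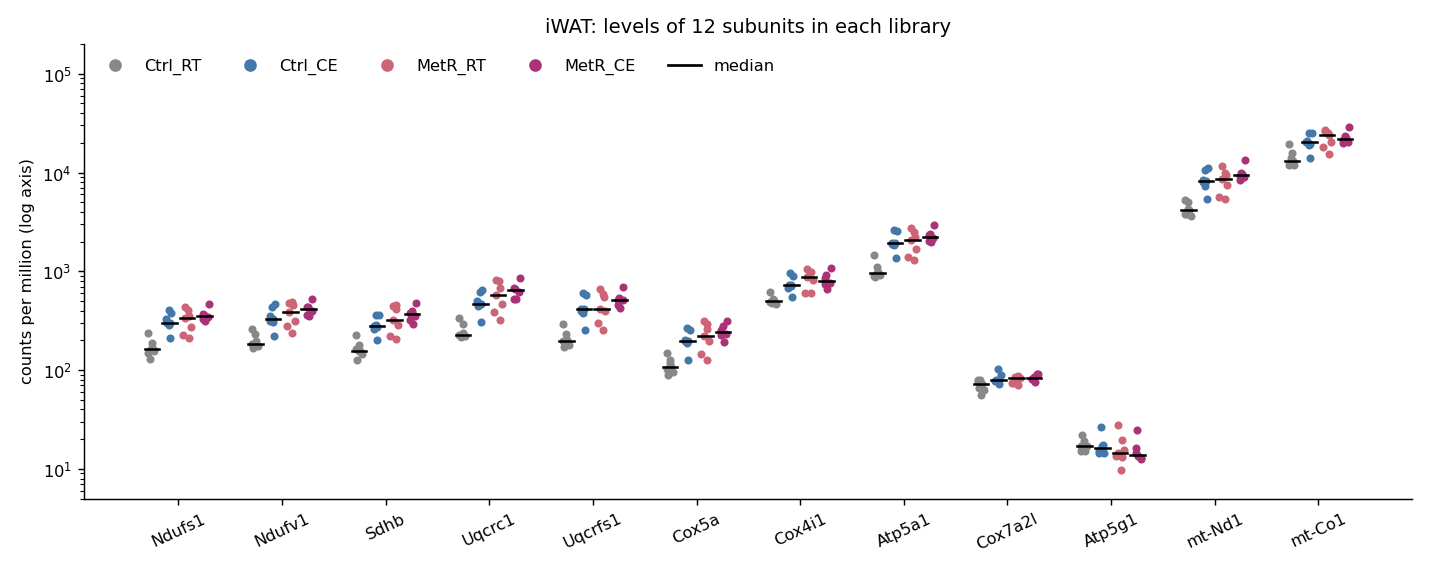
Scaled CPM (log axis) of 12 subunits in each iWAT library, coloured by group, with a line at the group's median. The 8 nuclear subunits from Ndufs1 to Atp5a1 and the mitochondrial mt-Nd1 and mt-Co1 have higher medians in the 3 other groups than in Ctrl_RT, while Atp5g1 has medians of 17.2, 16.5, 14.5 and 13.96 CPM.

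The mitochondrial members rose in iWAT as well, 8, 8 and 10 of 10. mt-Nd1, a membrane subunit of complex I, had 3665 to 5333 CPM in Ctrl_RT (median 4128), 5429 to 11183 in Ctrl_CE (8199), 5413 to 11671 in MetR_RT (8533) and 8421 to 13279 in MetR_CE (9474). No group overlapped Ctrl_RT, and the fold changes were 1.97, 1.93 and 2.32 (adjusted p = 0.000104, 0.00026 and 5.5e-06). mt-Co1, the subunit of complex IV with the oxygen-binding centre, had smaller fold changes, with 11819 to 19347 CPM in Ctrl_RT (median 13097) and 13871 to 24949 (20532), 15231 to 27248 (23896) and 19681 to 28590 (21831). Its log2 fold changes were 0.54 ± 0.16, 0.66 ± 0.16 and 0.68 ± 0.17 (adjusted p = 0.0113, 0.00365 and 0.00185). The share of all counts that the 10 genes took rose from a median of 4.00% to 5.35, 6.07 and 6.28%, and that of the nuclear members from 1.36% to 1.89, 2.01 and 2.23%.

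Markers of other cell types moved with these groups in iWAT. The 8 brown adipocyte markers include Ucp1 and Cidea, but also the left-out subunits Cox7a1 and Cox8b and the regulator Ppargc1a. Their sum was 94.4 to 880 CPM in Ctrl_RT, 889 to 6127 in Ctrl_CE, 481 to 5247 in MetR_RT and 3405 to 7973 in MetR_CE, and 8 of 8 rose in each group. The sum of 6 macrophage markers (Adgre1, Cd68 and others) went the other way, from 1473 to 2403 CPM to 300 to 1666, 255.9 to 1100 and 197 to 492.9, and 6 of 6 fell in each group. The sum of 7 adipocyte markers ran from 15163 to 19740 CPM in Ctrl_RT and from 22341 to 24474 in MetR_CE. Of 6 hepatocyte markers, 3, 2 and 2 rose and 1 (Cyp2e1) fell; Cyp2e1 held most of their sum, with 698 to 2579 CPM in Ctrl_RT and 167 to 520 in MetR_CE. Muscle markers were unequal between the diets as well. On the control diet, the median sum of the 9 markers was 184.7 CPM at RT and 233.1 CPM in the cold. Under methionine restriction it was 814 CPM at RT and 1090 CPM in the cold, and the ranges of all groups overlapped. Of these 9 markers, Myh1 rose in MetR_RT, Mb and Myh1 rose in MetR_CE, and 0 rose in Ctrl_CE. The part of these cell types in the rise of the subunits was not tested. Without the 9 libraries in which muscle markers summed to over 1000 CPM, 73, 68 and 78 members rose and 0 fell, with 4, 3 and 8 of the mitochondrial genes among them.

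The genes that build and supply the complexes were higher in iWAT too. Of 45 assembly factors tested, 34, 34 and 31 rose and 0 fell, with median log2 fold changes of 0.52, 0.43 and 0.55, and with Cox10, an enzyme on the way to heme a of complex IV, among the 3 largest rises in each group. Of 28 genes that copy, transcribe or stabilise mitochondrial DNA and RNA, 16, 14 and 16 rose, among them Lrpprc, which stabilises mitochondrial mRNAs, and 1 (Polg2) fell in Ctrl_CE. Of 14 regulators, 8, 7 and 8 rose, led by Esrrg, an estrogen-related receptor, and Pprc1, a relative of PGC-1α, fell in Ctrl_CE and MetR_RT. All 9 supercomplex and cristae factors rose in Ctrl_CE and MetR_CE and 8 in MetR_RT, where Cox7a2l, itself a member, was the exception. The 6 subunits outside the rule (Cox7a1, Cox8b, Cyc1 and Cycs among them) all rose in each group. Cox7a1 and Cox8b were also counted among the brown adipocyte markers.

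The responses were larger in iWAT than in the other depots, as tested on the difference itself in the joint fit. Cold on the control diet raised 78 members more in iWAT than in iBAT (7.19% of all genes; 0 less, 5.73%) and 39 more than in eWAT (3.53%; 0 less, 3.33%), with median differences of 0.63 and 0.44. Methionine restriction at RT raised 81 more than in iBAT (3.97%; 0 less, 2.12%) and 76 more than in eWAT (3.02%; 0 less, 2.25%), with medians of 0.70 and 0.66. With both treatments, 84 were raised more than in iBAT (9.19%; 0 less, 6.22%) and 85 more than in eWAT (8.12%; 0 less, 7.86%), with medians of 0.80 and 0.99. For Uqcrc1, the MetR_CE response was 1.48 ± 0.18 larger than in iBAT (adjusted p = 2.64e-10) and 1.45 ± 0.19 larger than in eWAT (adjusted p = 4.03e-09). With all libraries, cold on the control diet raised 12 members instead of 39 more in iWAT than in eWAT.

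For 11 members in iWAT, cold and diet together gave less than the sum of their separate changes. The fitted interaction was below 0 in 88 of 90 members. Its median was -0.58 on the log2 scale, against 0.04 over all genes, and it was below 0 with an adjusted p under 0.05 in 11 members, where 2.09% of all genes fell below and 0.859% rose above. The 11 members were Ndufa8, Ndufa11, Ndufb7, Ndufs3, Ndufs4, Ndufs5, Uqcrq, Atp5c1, Atp5g3, Atp5j and Atp5o. Uqcrq, a small subunit of complex III, had the largest of these, at -0.86 ± 0.21 (adjusted p = 0.0282). For Uqcrc1 the interaction was -0.81 ± 0.27 (adjusted p = 0.0861), and for mt-Nd1 it was -0.72 ± 0.25 (adjusted p = 0.104). In the main edgeR test, 76 members had an interaction below 0 with an unadjusted p under 0.05. The count of 11 depended on the libraries and on the fit. Without the 9 muscle-rich libraries it was 0, with 18 libraries left and a median interaction of -0.48. It was 18 with the scaling factors of DESeq2 in edgeR and 60 with DESeq2.

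In iBAT, 6 of 10 mitochondrial members fell in Ctrl_CE and 4 of 10 in MetR_CE, none rose, and nuclear subunits changed in both directions. Of the mitochondrial members that fell, only mt-Cytb shared no window with nuclear copies. In Ctrl_CE 17 members rose (15.3% of all genes) and 24 fell (17.9%), in MetR_CE 16 rose (15%) and 21 fell (18.5%), and in MetR_RT 7 rose (2.9%) and 2 fell (3.9%). The median log2 fold changes of the members were -0.02, -0.03 and 0.04, and those of all genes -0.08, -0.10 and -0.04. With the 3 libraries placed by their treatment label instead, 12 rose and 18 fell in Ctrl_CE, 12 rose and 18 fell in MetR_CE, and 2 rose and 1 fell in MetR_RT. With the scaling factors of DESeq2 in edgeR, 21 rose and 20 fell in Ctrl_CE, 19 rose and 17 fell in MetR_CE, and 14 rose and 1 fell in MetR_RT. No interaction passed the test in edgeR, where 14 members had an unadjusted p under 0.05, and 6 passed in DESeq2.

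The falls of the mitochondrial mRNAs differed between genes. mt-Co1 had 31736 to 37633 CPM in Ctrl_RT (median 34999), 18360 to 28364 in Ctrl_CE (21701), 30343 to 37794 in MetR_RT (33132) and 20908 to 27284 in MetR_CE (23571). Both cold groups lay wholly below both RT groups, and it fell by 0.66 ± 0.09 (adjusted p = 5.98e-07) and by 0.51 ± 0.08 (adjusted p = 1.65e-05) on the log2 scale. mt-Cytb, the membrane core of complex III, went from 23208 to 27719 CPM (median 25065) to 14801 to 21741 (16897) and 18261 to 21578 (18892) in the cold groups, which were again below Ctrl_RT without overlap. mt-Nd4 fell by 0.63 and by 0.61, and mt-Co3 by 0.44 and 0.52. mt-Nd1, in contrast, had 14590 to 17047 CPM in Ctrl_RT, 11966 to 17033 in Ctrl_CE and 14913 to 17875 in MetR_CE, with overlapping groups and log2 fold changes of -0.12 ± 0.08 (adjusted p = 0.243) and 0.07 ± 0.07 (adjusted p = 0.526), and mt-Nd2, mt-Nd5 and mt-Nd6 did not pass either. The share of all counts of the mitochondrial members had medians of 12.3 and 11.9% in Ctrl_RT and MetR_RT, and of 9.11 and 9.71% in the cold groups Ctrl_CE and MetR_CE. Of the genes that fell in Ctrl_CE, mt-Co2, mt-Co3 and mt-Atp6 had means of 2.43 to 4.59 CPM in iBAT. They share 99.5 to 100% of their windows with nuclear copies. mt-Co1 and mt-Nd4 share 51.1 and 62.2%, whereas mt-Cytb shares none.

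The nuclear subunits that passed the test in iBAT changed by less than 1.5-fold. Cox6a2 and Atp5g1, which did not pass, had larger fitted values in MetR_RT, -1.36 ± 0.85 and -0.89 ± 0.32. Ndufa11, a membrane subunit of complex I, had 83.01 to 98.7 CPM in Ctrl_RT (median 94.5), 114 to 129 in Ctrl_CE (120), 96.6 to 104 in MetR_RT (99.2) and 107 to 126 in MetR_CE (116). Both cold groups lay above both RT groups, with fold changes of 1.31 (adjusted p = 2.94e-07) and 1.26 (adjusted p = 2.01e-06). Atp5mpl, a small membrane subunit of the ATP synthase, had 105 to 122 CPM in Ctrl_RT and 130 to 152 in Ctrl_CE, with a fold change of 1.28 (adjusted p = 8.26e-06). Sdhd rose by 0.27 in Ctrl_CE, and Atp5f1, part of the stalk of the ATP synthase, rose by 0.25 in MetR_CE. Core subunits were among those that fell: Uqcrc1 went from 1150 to 1325 CPM to 905 to 1116 in Ctrl_CE, with no overlap and a log2 fold change of -0.23 ± 0.05 (adjusted p = 0.00104), and Ndufv1 and Ndufs1 of complex I and Sdha of complex II fell by 0.19, 0.18 and 0.17. Uqcrfs1 of complex III rose by 0.20, and among the members called in MetR_RT the largest changes were the rises of Uqcrfs1 and Uqcrc2 (both 0.22) and the fall of Ndufb8 by 0.22.

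Assembly factors of iBAT changed in the cold as well. Of 45 tested, 18 rose and 5 fell in both Ctrl_CE and MetR_CE, with median log2 fold changes of 0.11 and 0.11. Coa7, a factor for complexes I and IV, was the largest rise in both groups. Of the 28 mitochondrial DNA and RNA factors, 11 rose and 3 fell in Ctrl_CE, led by Grsf1, which binds mitochondrial RNA, and of the 14 regulators 6 rose, led by Ppargc1a, and Yy1 fell. The sum of the brown adipocyte markers was 9016 to 11760 CPM in Ctrl_RT and 15924 to 18823 in Ctrl_CE, where 5 of 8 rose and 1 (Cox8b) fell. Of 6 macrophage markers, 1 rose in Ctrl_CE, 4 fell in MetR_RT and 5 fell in MetR_CE, and of 6 hepatocyte markers 4 fell in each comparison. The part of these cells in the changes was not tested. Without the 4 iBAT libraries in which muscle markers summed to over 1000 CPM, 16 members rose and 20 fell in Ctrl_CE, with 7 mitochondrial genes among the falls.

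In liver, members changed in both directions. In Ctrl_CE 7 members rose (14.7% of all genes) and 38 fell (14.2%), in MetR_RT 10 rose (10.1%) and 9 fell (8.7%; 9 and 11 with the scaling factors of DESeq2), and in MetR_CE 12 rose (15.2%) and 27 fell (15.2%). The median log2 fold changes were -0.15, -0.03 and -0.07, and those of all genes -0.01, 0.00 and -0.04. Of the 13 core subunits on a list of catalytic and cofactor-binding subunits, 5, 4 and 7 rose, and only Cox4i1 fell, in Ctrl_CE and MetR_CE. No interaction passed the test in edgeR, where 9 members had an unadjusted p under 0.05, and 1 passed in DESeq2.

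Ndufs1 rose in each comparison. It had 96.0 to 118 CPM in Ctrl_RT (median 103), 102 to 148 in Ctrl_CE (135), 120 to 142 in MetR_RT (132) and 150 to 172 in MetR_CE (156), so that both MetR groups lay above Ctrl_RT and MetR_CE above all others. The log2 fold changes were 0.31 ± 0.06, 0.33 ± 0.06 and 0.59 ± 0.06 (adjusted p = 0.00051, 0.00048 and 2.84e-08). Sdha, the flavoprotein of complex II, rose in the cold groups by 0.32 ± 0.08 and 0.27 ± 0.08, and Atp5a1 and Atp5b, the catalytic head of the ATP synthase, rose in the cold as well, by 0.25 and 0.18 in Ctrl_CE and by 0.35 and 0.39 in MetR_CE. Uqcrc2, a core protein of complex III, rose in all 3 comparisons, by 0.18, 0.24 and 0.33.

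Uqcrh, the hinge protein of complex III, was among those that fell, with 114 to 130 CPM in Ctrl_RT (median 121), 76.2 to 110 in Ctrl_CE (95.4), 101 to 114 in MetR_RT (108) and 84.8 to 103 in MetR_CE (91.9). Both cold groups lay below Ctrl_RT, and it fell by 0.37 ± 0.06 (adjusted p = 2.35e-05), 0.18 ± 0.06 (adjusted p = 0.0335) and 0.41 ± 0.06 (adjusted p = 5.03e-06) on the log2 scale. Ndufa2, a small subunit of the matrix arm of complex I, had 69.2 to 90.4 CPM in Ctrl_RT, 53.7 to 67.5 in Ctrl_CE and 55.9 to 65.6 in MetR_CE, with no overlap, and Atp5s had the largest fall in Ctrl_CE, by 0.64. In MetR_CE, Ndufa1 and Ndufa4l2 fell by 0.55 and 0.54, and mt-Co2 fell by 0.43. Of the 37 nuclear members of complex I, 1 rose and 21 fell in Ctrl_CE.

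In liver, short genes had lower fold changes in the cold than long genes, members or not. Nuclear members with under 1500 bases of exon (38 genes) had a median log2 fold change of -0.21 in Ctrl_CE and the longer 42 had -0.14, with a Spearman correlation of 0.17 between length and change over the 80 genes. Over all 12364 genes at 1 CPM or more, the medians were -0.25 for short and 0.02 for longer genes, with a correlation of 0.32. In MetR_CE they were -0.12 and -0.05 for the members and -0.22 and 0.02 for all genes, and in MetR_RT -0.04 and 0.02 for the members and -0.03 and 0.02 for all genes. In iBAT and iWAT the correlation over all genes was between -0.06 and 0.08. In eWAT it was -0.03, 0.05 and 0.17, the last in MetR_CE with medians of -0.10 for short and -0.01 for longer genes. Over the members, in Ctrl_CE, MetR_RT and MetR_CE, the correlation was 0.17, 0.32 and 0.24 in liver and 0.29, 0.24 and 0.21 in iWAT. It was 0.18, 0.22 and 0.09 in eWAT and -0.13, 0.25 and 0.02 in iBAT. Among the members the trend was thus particular neither to liver nor to the cold. Genes of 1 library share its preparation, so that these correlations are given without a test, and the part of length in the falls was not tested.

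**Figure D5:**
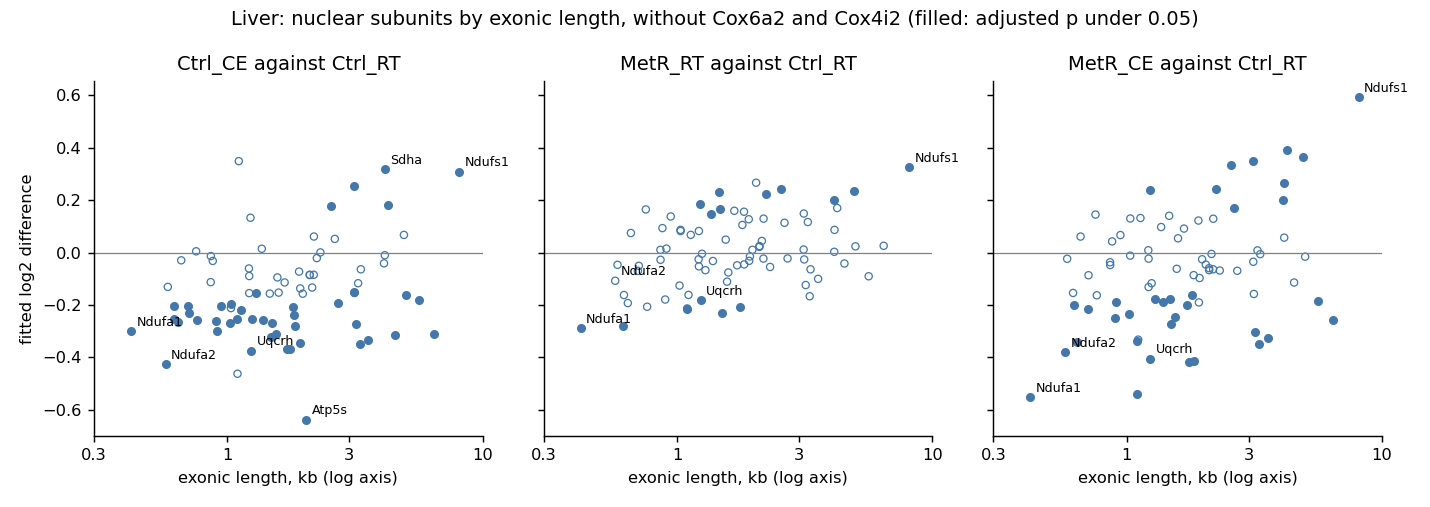
Fitted log2 difference from Ctrl_RT in liver against exonic length in kilobases (log axis) for the nuclear subunits other than Cox6a2 and Cox4i2, with filled points where the adjusted p was under 0.05. Ndufs1, one of the longest, rises in each panel, and the short Ndufa1, Ndufa2 and Uqcrh lie below 0; the Spearman correlation over all 80 members is 0.17, 0.32 and 0.24 from left to right.

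The mitochondrial members of liver followed no common direction. mt-Nd5, a membrane subunit of complex I, had 3266 to 4616 CPM in Ctrl_RT (median 4037), 4548 to 6890 in Ctrl_CE (6355), 2722 to 4144 in MetR_RT (3551) and 5368 to 5987 in MetR_CE (5719). It rose by 0.59 ± 0.10 (adjusted p = 4.54e-05) and 0.51 ± 0.10 (adjusted p = 0.000231) in the cold groups, and MetR_RT was at -0.21 ± 0.10 (adjusted p = 0.156). mt-Nd1 rose in Ctrl_CE by 0.39 ± 0.09 (adjusted p = 0.000762) and fell in MetR_RT by 0.26 ± 0.09 (adjusted p = 0.0284). mt-Nd2 fell in MetR_RT and MetR_CE by 0.47 and 0.31.

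The largest change of a member in liver was that of Cox6a2. It had 0 to 0.234 CPM in Ctrl_RT (median 0.0623), 0 to 0.119 in Ctrl_CE (0.0780), 2.20 to 6.15 in MetR_RT (3.88) and 1.15 to 3.39 in MetR_CE (3.09). Every MetR library lay above every Ctrl library, with 6 counts over the 7 Ctrl_RT libraries and 495 over those of MetR_RT. The log2 fold change was 5.78 ± 0.41 in MetR_RT (adjusted p = 1.86e-11), 5.22 ± 0.43 in MetR_CE (adjusted p = 1.54e-10) and 0.09 ± 0.76 in Ctrl_CE (adjusted p = 0.948), and the first 2 values depend on how the few Ctrl_RT counts are handled. Skeletal muscle markers were at the floor in all groups: 6 of 9 had fewer than 10 counts over all liver libraries, Ckm among them at 0 in all of them, and the sum of the other 3 was 0.505 to 1.61 CPM over all groups. Cox6a1, the isoform known from liver, had 293.8 to 388 CPM in Ctrl_RT and fell by 0.21 in Ctrl_CE and 0.22 in MetR_CE.

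The pathway lists of liver were mixed as the subunits were. Of 45 assembly factors, 5 rose and 15 fell in Ctrl_CE, 2 rose and 5 fell in MetR_RT, and 11 rose and 13 fell in MetR_CE. Of the regulators, 8 of 14 rose in Ctrl_CE, 5 in MetR_RT and 9 in MetR_CE, led by Esrrg in both cold groups and by Ppargc1b in MetR_RT, with 2 falls (Pprc1 and Nrf1) in Ctrl_CE. Of 6 macrophage markers, 4 rose in Ctrl_CE, 4 fell in MetR_RT and 2 fell in MetR_CE. All 4 endothelial markers rose in both cold groups, with a sum of 62.8 to 85.6 CPM in Ctrl_RT, 111 to 191 in Ctrl_CE and 148 to 171 in MetR_CE, and the sum of 6 hepatocyte markers was 65276 to 95934 CPM in Ctrl_RT and 47813 to 58167 in MetR_CE. Their part in the changes of the subunits was not tested.

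In eWAT, few members passed the test, and the outcome rested on which Ctrl_RT libraries were used. With the kept libraries, 6 members rose (2.11% of all genes) and 1 fell (3.16%) in Ctrl_CE, 0 rose (0.036%) and 0 fell (0.112%) in MetR_RT, and 0 rose (1.48%) and 1 fell (1.22%) in MetR_CE. In MetR_RT, 1 member had an unadjusted p under 0.05, and DESeq2 called 0 as well. The median log2 fold changes were 0.20, 0.08 and -0.15, and those of all genes -0.01, -0.02 and -0.03. With all 28 libraries, 42 members rose and 2 fell in Ctrl_CE, with a median of 0.33 for the members and -0.21 for all genes. Leaving out any of replicates 1, 3, 6 and 7 of Ctrl_RT left 0 to 2 calls. The largest rises in Ctrl_CE were those of Atp5g3 (0.52), Ndufa11 (0.51) and Ndufb7 (0.40), Atp5s fell by 0.53, and in MetR_CE Ndufv3, a small subunit of the NADH module, fell by 0.33.

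The interaction of cold and diet was below 0 for 20 members of eWAT, where 1.43% of all genes were, and above 0 for Atp5s (1.64% of all genes). The median was -0.45, against 0.05 for all genes. Atp5g3 had 280, 307, 292.3 and 301 CPM in the Ctrl_RT libraries (replicates 1, 3, 6 and 7), 335 to 507 in Ctrl_CE (median 427), 228 to 404 in MetR_RT (345) and 246 to 318 in MetR_CE (264.1). Only Ctrl_CE lay wholly above Ctrl_RT, with a log2 fold change of 0.52 ± 0.14 (adjusted p = 0.0295), and the interaction was -0.80 ± 0.18 (adjusted p = 0.0181). Ndufa11 had 31.7, 36.2, 36.8 and 36.7 CPM in Ctrl_RT, 35.8 to 60.8 in Ctrl_CE, 30.6 to 53.4 in MetR_RT and 31.5 to 40.03 in MetR_CE, with an interaction of -0.72 ± 0.18 (adjusted p = 0.0298). With all 28 libraries no interaction passed the test, and leaving out replicate 1, 3, 6 or 7 of Ctrl_RT left 2, 6, 5 and 4.

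In eWAT, the median share of both kinds of subunit was lowest in MetR_CE. The nuclear members took 1.17 to 1.18% of all counts in Ctrl_RT, 1.16 to 1.399% in Ctrl_CE (median 1.33%), 1.02 to 1.35% in MetR_RT (1.27%) and 0.967 to 1.22% in MetR_CE (1.07%). The mitochondrial members had log2 fold changes of -0.50 to -0.21 in MetR_CE, none of which passed the test in edgeR, while DESeq2 called 4 of the 10 lower and edgeR's filter by expression 1. mt-Co1, for example, had 13064, 11482, 11475 and 17357 CPM in Ctrl_RT and 7241 to 10686 CPM in MetR_CE, below them without overlap, at -0.50 ± 0.21 (adjusted p = 0.229). A library with epididymal transcripts, MetR_RT replicate 2, had 1269 CPM summed over the 5 of 6 markers that were measured. It had no counterpart above 109 CPM among the other eWAT libraries of the fit. Without it, 4 members rose and 1 fell in Ctrl_CE, and 8 interactions passed the test instead of 21. Of 6 hepatocyte markers, Cyp2e1 fell in Ctrl_CE and MetR_CE and 0 rose in edgeR, while the medians of the 6 were 2.53, 1.45 and 2.67, and their part in these results was not tested. Of the assembly factors, 2 rose in Ctrl_CE and none was called in MetR_RT or MetR_CE.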

How the data were processed

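Poly(A)-selected RNA of liver, iBAT, iWAT and eWAT was sequenced as 2 × 50 bp pairs. The deposited tables hold whole-number counts per gene, which the authors made without normalization; the submitters' processing notes name STAR 2.7.9a, featureCounts 2.0.3, Salmon 1.9.0 and build mm10. Symbols were found for 51948 of the 56884 gene IDs; the others, with 0.23% of counts, stayed in the fits. Of the columns of per-sample values, 0 went unused. Groups came from sample titles. The libraries that the study left out (iBAT Ctrl_CE replicate 5, eWAT Ctrl_RT replicates 2, 4 and 5 and eWAT MetR_RT replicate 7) were found by matching its base means and left out of the main tests.

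Genes with at least 10 counts in a tissue were fitted with edgeR 4.0.16 in R 4.3.3 (quasi-likelihood test, TMM scaling, 4 groups per tissue; a joint fit over 4 tissues without a term for the mouse), with Benjamini-Hochberg adjustment over all genes and a threshold of 0.05. Gene levels are CPM after TMM scaling within a tissue, and shares are of a library's unscaled counts. DESeq2 1.42.0, its scaling factors, other filters, a replicate block, left-out libraries and, for the joint fit, limma 3.58.1 with the mouse as a block were alternatives, and the scripts were tested on simulated data. Replicates are separate mice, so that p-values measure the spread between mice. The members and gene lists were chosen with earlier results of these data known. The genes named are the core subunits and isoform pairs, the mitochondrial genes, the 3 called members with the largest rise and fall per comparison, up to 5 members of a complex called against its majority, and up to 3 called genes per direction of other lists. Members with an interaction and any other gene outside this rule were named after their values were seen. Shared windows of 50 bases and exonic lengths came from GENCODE vM21 transcripts (GRCm38). Few counts limit the precision of members near 1 CPM. The values of 1 core subunit are not reported here.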

Additional observations from a re-analysis of the deposited data

Results flagged for a closer look

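Single libraries stood apart from the others of their group in 19 of 176 group values tested with Dixon's criterion, where chance flags about 1 in 20 groups. In liver, Ctrl_CE replicate 4 had the lowest shares of its group for mitochondrial (3.24%) and nuclear (0.8147%) subunits, MetR_RT replicate 3 had the lowest mitochondrial share (2.91%), and Ctrl_RT replicate 3 had the highest Cox6a2 (0.2339 CPM). In eWAT, the nuclear share was lowest in Ctrl_RT replicate 1 (1.167%) and Ctrl_CE replicate 3 (1.156%), and Ndufa11 was lowest in Ctrl_RT replicate 1 (31.65 CPM). In iBAT, Atp5g3 was highest in MetR_RT replicate 5 (216.8 CPM).

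In iWAT, Cox6a2 was highest in Ctrl_RT replicate 2 (7.473 CPM), Ctrl_CE replicate 5 (3.521 CPM), MetR_RT replicate 6 (34.4 CPM) and MetR_CE replicate 6 (18.7 CPM), which are the libraries with the most muscle marker RNA of their groups. Atp5g1 was highest in Ctrl_CE replicate 4 (26.51 CPM) and MetR_CE replicate 6 (24.51 CPM). Ctrl_RT replicate 5 had the highest Sdhd (224.8 CPM) and Atp5a1 (1448 CPM), MetR_CE replicate 1 the highest mt-Nd1 (13279 CPM) and Ndufs1 (469.5 CPM), and Ctrl_CE replicate 3 the highest Cox4i2 (2.842 CPM).

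Responses differed between groups by tests of the difference itself. The response to cold differed between the diets for 11 members in iWAT and 21 in eWAT. Between depots, the difference from Ctrl_RT was larger in iWAT than in iBAT for 78 members in Ctrl_CE, 81 in MetR_RT and 84 in MetR_CE, and larger than in eWAT for 39, 76 and 85.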

How the results depend on the processing

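No called member changed its sign under the alternatives run, but the balance of rises and falls turned for 3 counts. With DESeq2, iBAT Ctrl_CE went from 17 up and 24 down to 23 and 22, and iBAT MetR_CE from 16 and 21 to 22 and 20. Liver MetR_RT went from 10 and 9 to 12 and 15. The same 3 counts turned with the scaling factors of DESeq2 in edgeR. Liver MetR_RT also turned with edgeR's filter by expression (11 and 14) and with the replicate block (8 and 10). Of the counts of called members 132 values stayed within 1.5 times the count of the main test and 47 did not. With a change of at least 1.5-fold required as well, liver had 2, 1 and 2 calls in Ctrl_CE, MetR_RT and MetR_CE, iBAT 2, 0 and 1, and eWAT 0 in Ctrl_CE and MetR_CE. DESeq2 gave 1 call for the interaction in liver, 24 in iBAT MetR_RT, 6 and 60 for the interaction in iBAT and iWAT, and 19, 8 and 57 in eWAT Ctrl_CE, MetR_CE and the interaction. Its scaling factors in edgeR gave 15 in iBAT MetR_RT and 18 for the iWAT interaction. With edgeR's filter by expression, these were 1 (liver interaction), 19 (iBAT MetR_RT), 1 and 36 (iBAT and iWAT interaction), and 12, 4 and 42 (eWAT). With iBAT libraries placed by treatment label, MetR_RT had 3. eWAT MetR_CE had 0 calls without the filter, with scaling without mitochondrial genes and without the epididymis-rich library (MetR_RT replicate 2), without which the interaction had 8. Without the muscle-rich libraries, the iWAT interaction had 0, with 18 libraries left and a median of -0.48. With all libraries, eWAT had 44 in Ctrl_CE and 0 for the interaction, the Ctrl_CE response differed between iWAT and eWAT for 12, and Ctrl_RT levels for 76. The muscle-rich and epididymis-rich libraries were chosen after seeing the data. Leaving out eWAT Ctrl_RT replicate 1, 3, 6 or 7 gave 0 to 2 calls in Ctrl_CE, 0 to 2 in MetR_CE and 2 to 6 for the interaction. The cause of these changes was not tested.

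With the replicate number as a block, the iWAT interaction had 21 calls, eWAT MetR_CE 0, and the other counts stayed within 1.5 times. The same number names different mice in different groups. Same-numbered libraries of different groups had median correlations of -0.00379 (liver), 0.0367 (iBAT), 0.067 (iWAT) and 0.123 (eWAT) in their deviations from the group means. Of these pairs, 8 of 42, 13 of 36, 18 of 39 and 16 of 30 were above 0.1. Differently numbered pairs had medians of 0.00124 (liver), -0.0306 (iBAT), -0.0109 (iWAT) and -0.0217 (eWAT). Whether same-numbered libraries share anything was not tested. For single named genes, 2502 values kept their side of the threshold, 152 lost it and 71 moved. Low counts limit Cox6a2, mt-Co2, mt-Co3 and mt-Atp6.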
